A study of Mus musculus with 4 samples.

Results

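The small RNAs described here were bound to PIWIL1 in adult mouse testis and carried neither of the bases by which piRNAs are usually recognised, U at the first position (1U) and A at the 10th (10A). They were chosen by sequence alone, as inserts of 29 to 31 nt whose first base was A, C or G and whose 10th base was C, G or T. Of 1399632 distinct inserts of that core length in both libraries together, 141954 (10.1%) met the rule, and the libraries held 2517272 distinct inserts of all lengths. By first base, 52316 started with A, 50599 with C and 39039 with G, and these are kept apart below. PIWIL1 was immunopurified from testis lysate of wild-type C57BL/6J mice aged 10 weeks, and RNA of a selected size was cut from a gel before 2 replicate libraries were made. The labels do not say whether the replicates came from separate animals, so the spread between them may be technical. No control immunoprecipitation was analysed here. Testis RNA-seq from Piwil1+/- and Piwil1-/- mice at postnatal day 23, with 1 library each, was not used.

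PIWIL1, also called MIWI, is the PIWI protein of late meiotic cells and round spermatids, where it carries piRNAs cut from long single-stranded precursor transcripts. A pocket of PIWI proteins holds the 5′ base of the piRNA and favours U, while the 3′ end is trimmed and methylated after loading. The 10A mark belongs to another route, in which a PIWI protein guided by a 1U piRNA cleaves a complementary transcript and the cleaved end becomes the 5′ end of a new piRNA that carries A opposite the guide's first base.

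The 5 most abundant 5′ ends with each start base are shown first, because they carry a large part of the reads and set much of the read-weighted composition below. A 5′ end is defined here by its first 20 nt, and each is shown by its most abundant core-length insert, numbered within its start base by mean abundance. Sequences run 5′ to 3′ with T for U as in the files, and capitals mark positions 1 and 10.
A-start 1: AtccatgtaTgcaaatgtgactctctgagg
A-start 2: AtggaacaaTttctgtaaatttcctgggt
A-start 3: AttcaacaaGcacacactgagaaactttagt
A-start 4: AagtagataTattataaggtttctgcactg
A-start 5: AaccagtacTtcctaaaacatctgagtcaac
C-start 1: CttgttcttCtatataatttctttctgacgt
C-start 2: CaacttgatGtttctttctgaatctatga
C-start 3: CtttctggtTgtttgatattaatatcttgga
C-start 4: CacagaatgTagacagagtactctgaggc
C-start 5: CatctatctTgaagactttcatacaatca
G-start 1: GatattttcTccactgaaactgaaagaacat
G-start 2: GtttcagacCatgggtcttctgaacggcgt
G-start 3: GtctatatgTgagactgccatgctccgag
G-start 4: GctctgtgaTcccagacgaatgtcctgtgt
G-start 5: GaaatgaatGaggacctggtcctgtgggt

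The next sequences show members whose 5′ end sits beside a 5′ end starting with U that has more reads, summed over its lengths. The pairs are shown because the U-start neighbour begins 1 nt upstream, and the capital in the neighbour is that U. The member of the first pair is A-start 4 and that of the second is G-start 5.
A-start 4, U-start neighbour: Taagtagatatattataaggtttctgcact
G-start 5, U-start neighbour: Tgaaatgaatgaggacctggtcctgtgggt
further A-start member: AtttctggaTttgactgtcagcttgagtgt
its U-start neighbour: Tatttctggatttgactgtcagcttgagt

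The last set shows members that equal a more abundant small RNA except for the first base. They are lettered a and b by abundance. Both start with C and their relatives with U, the substitution being C1T in each, with positions counted from the 5′ end of the member. Capitals mark position 1.
C-start a: Cacactgtcgtgctcctgtacctagttcac
U-start relative of C-start a: Tacactgtcgtgctcctgtacctagttcac
C-start b: Cgtaaaatggactgaaatgttacctcatc
U-start relative of C-start b: Tgtaaaatggactgaaatgttacctcatc

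The table held 4836797 reads in replicate 1 and 6408274 in replicate 2, of which 97.6% and 98.7% gave an insert. Of the insert reads, 71.0% and 77.7% were of core length. Values below are means ± SD over the 2 libraries, and counting intervals are exact 95% binomial intervals that cover counting error only, since PCR makes several reads of the same molecule. Differences between kinds of insert were taken within each library. Inserts that share a 5′ end differ only near the 3′ end and are not independent of each other. With 2 libraries an exact two-sided sign-flip permutation test cannot go below p = 0.5, which is the p of every difference below that had the same sign in both.

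Inserts with neither mark were a small but steady share of what PIWIL1 carried. They made up 182109 of 3351685 core-length reads in replicate 1, 5.43% (interval 5.41 to 5.46%), and 268411 of 4911034 in replicate 2, 5.47% (5.45 to 5.49%), a mean of 5.45% ± 0.0227 (SD, n = 2). Inserts starting with A held 2.03% ± 0.0681 of core-length reads, those with G 1.83% ± 0.107 and those with C 1.59% ± 0.0158. The order of A and G was the same in both libraries, although their gap in replicate 2 was narrow, at 1.99% against 1.90%. By comparison, inserts without 1U but with 10A held 4.02% ± 0.0379, 1U inserts without 10A 63.8% ± 0.211 and 1U inserts with 10A 26.8% ± 0.196.

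The rarity of the group was greater than that of its marks taken separately. Multiplying the share of core-length reads without 1U by the share without 10A gave 6.56% ± 0.0117, against the measured 5.45%. The difference is arithmetic and lies at the rule's own positions. A stood at position 10 in 43.7% ± 1.06 of A-start reads, 45.2% ± 0.828 of C-start reads and 38.4% ± 1.30 of G-start reads, against 29.6% ± 0.222 of U-start reads. Within the members, the base at position 10 was most often U, in 52.4% ± 1.18 of A-start, 47.1% ± 0.372 of C-start and 54.2% ± 0.515 of G-start reads. These values describe the positions that define the group.

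A distinct member had fewer reads than a distinct 1U insert, and was less often found in both libraries. Reads per distinct member and library were 2.73 ± 0.243, against 5.0 ± 0.579 for 1U inserts without 10A. Of the distinct members, 15.5% were seen in both libraries, against 24.5% of 1U inserts without 10A, and those shared members carried 70.4% ± 0.681 of member reads, against 86.1% ± 0.537. Of the members' 5′ ends, 72.9% ± 1.65 had 1 read in the library, against 62.1% ± 0.0881. Inserts without 1U but with 10A lay nearer to members than to 1U inserts without 10A on these measures. They had 3.52 ± 0.297 reads per distinct insert, 16.6% were in both libraries, and 71.8% ± 1.60 of their ends had 1 read. Members were 14.4% ± 0.0246 of all core-length 5′ ends with 1 read, 11.5% ± 0.815 of those with 2 to 9 reads, 5.03% ± 0.752 with 10 to 99 and 2.33% ± 0.00707 with 100 up to 1000. Among ends with 1000 or more reads they were 5.54% ± 0.931, so the lowest share was not among the most abundant ends.

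A few 5′ ends held much of the group, and unequally by start base. Among G-start members, 72 ends in replicate 1 and 49 in replicate 2 were enough to hold 50% of the reads, out of 13410 and 17120. For A-start members the numbers were 170 and 156 ends of 18898 and 23078, and for C-start members 515 and 447 of 18351 and 23121. The top 10 ends held 39.3% ± 1.64 of G-start reads, 27.8% ± 0.186 of A-start reads and 16.8% ± 1.45 of C-start reads, so C-start members were the most evenly spread in both libraries. Over all members the top 10 ends held 20.5% ± 0.368 of reads, against 2.92% ± 0.002 of 1U inserts without 10A, which had many more ends. The top 10 ends of inserts without 1U but with 10A held 23.9% ± 0.356. The ends that held 50% of reads were 0.943% ± 0.280 of member ends and 1.23% ± 0.259 of ends of 1U inserts without 10A. They were 0.319% ± 0.0811 of ends without 1U but with 10A.

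The most abundant member of all was G-start 1, the 31-nt insert gatattttcT..., with 6590 reads in replicate 1 and 10329 in replicate 2. Its 5′ end, over inserts of 24 to 40 nt, had 11777 and 18831 reads, or 2736 ± 343 RPM, reads per 1000000 insert reads. Reads and RPM of a named 5′ end cover 24 to 40 nt throughout, whereas shares of member reads count core lengths only. At core length, that end alone held 17.0% ± 0.441 of all G-start member reads. G-start 2 followed with 6104 and 10374 reads at its end, 1467 ± 246 RPM, and its 30-nt form made up 84.7% ± 0.535 of the end's length distribution. G-start 3 was less uniform at its 3′ end: its end had 2519 and 3799 reads, of which the 30-nt class held 47.8% ± 2.03, and the most abundant single insert, of 29 nt, held 30.1% ± 0.930. G-start 4 had 1552 and 2390 reads at its end.

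G-start 5 stood out among the top ends by its difference between libraries. Its end had 785 reads in replicate 1 and 2000 in replicate 2, 166 and 316 RPM. The insert itself had 465 and 1225 reads, a log2 ratio of 0.98 between replicates 2 and 1 after scaling to insert reads. Its U-start neighbour moved with it, from 1025 to 2463 reads. In the other 4 G-start ends the log2 ratio of the insert lay between 0.20 and 0.35.

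Among A-start ends, A-start 1 led with 8150 and 10455 reads, 1690 ± 51.0 RPM, and held 10.4% ± 0.575 of A-start member reads. Its 30-nt class was 59.3% ± 3.31 of the end. A-start 2 had 2402 and 3462 reads at its end, 528 ± 27.5 RPM, and its 29-nt class was 95.2% ± 1.28 of the end, the most uniform 3′ end among the 15 shown. The ends of A-start 3, 4 and 5 had 479 ± 39.8, 373 ± 87.3 and 349 ± 27.2 RPM. All 3 were lower in replicate 2, as was A-start 1, and A-start 4 had the widest gap, with 435 and 311 RPM. Its U-start neighbour also had fewer reads there, 2798 and 2450.

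The C-start ends were less abundant. C-start 1 had 2460 and 4671 reads, 630 ± 154 RPM, and held 4.49% ± 0.869 of C-start member reads. C-start 2 had 1822 and 2610 reads, 399 ± 19.1 RPM. C-start 3, 4 and 5 had 252 ± 21.4, 229 ± 5.42 and 192 ± 13.5 RPM. Among the 5 inserts shown, C-start 1 had the largest log2 ratio between libraries, 0.50, and C-start 5 the smallest, 0.02.

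Over all start bases together, the 3′ ends of members with 100 or more reads were slightly less variable than those of 1U inserts. For 5′ ends with 100 or more reads, 134 in replicate 1 and 195 in replicate 2, the commonest 3′ end held a median of 49.4% ± 0.621 of the reads, against 47.4% ± 0.317 for 1U inserts without 10A. By start base the median was 47.9% ± 2.54 for A, 50.8% ± 0.746 for C and 51.8% ± 0.888 for G. For A-start members the direction differed between libraries, at 49.7% and 46.1% against 47.2% and 47.6% for 1U inserts without 10A. Inserts without 1U but with 10A had a median of 46.3% ± 0.917.

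Members were slightly longer than 1U inserts, and C-start members the most. Within the core length, 23.6% ± 0.505 of member reads were 29 nt, 41.6% ± 0.581 were 30 nt and 34.7% ± 0.0769 were 31 nt, against 25.5% ± 0.206, 44.9% ± 0.0505 and 29.6% ± 0.257 of 1U inserts without 10A. The 31-nt share was higher by 5.16 ± 0.334 percentage points in members, and by 8.39 ± 0.742 points in C-start members, in both libraries. Inserts without 1U but with 10A also had a higher 31-nt share than 1U inserts without 10A, at 33.3% ± 0.468. A check chosen after the data were seen left out the 100 most abundant member 5′ ends and the 100 most abundant U-start ends. The difference was then 3.21 points for members and 6.98 for C-start members, while that of G-start members turned from 3.87 to -0.88. The larger 31-nt class of G-start members thus depended on the abundant ends that were left out.

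The same 2 base rules applied to other insert lengths placed the minimum of the group at the piRNA length itself. Inserts without 1U and 10A were 5.11% ± 0.0847 of 29-nt reads and 5.05% ± 0.0380 of 30-nt reads. The share was 6.34% ± 0.0665 at 31 nt and 7.07% ± 0.00742 at 32 nt. On the short side it was 5.89% ± 0.271 at 28 nt, 12.5% ± 1.27 at 26 nt and 24.3% ± 1.77 at 20 nt. The steps from 30 to 31 nt and from 28 to 26 nt were larger than the spread between libraries.

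At positions that the rule did not use, the clearest difference from 1U inserts was at position 2, where members carried little G. Weighted by reads, G stood at position 2 in 3.87% ± 0.101 of C-start, 4.82% ± 0.00411 of G-start and 14.3% ± 0.269 of A-start members, against 22.1% ± 0.543 of 1U inserts without 10A. With each 5′ end counted once, so that abundant ends do not dominate, the shares were 6.58% ± 0.369, 10.3% ± 0.170, 19.1% ± 0.166 and 23.7% ± 0.375. The difference was thus largest for C-start members, at -18.3 ± 0.441 points by reads and -17.1 ± 0.00556 by ends. It was -17.3 ± 0.539 and -13.4 ± 0.205 points for G-start members and -7.84 ± 0.273 and -4.62 ± 0.209 points for A-start members.

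CG dinucleotides are scarce in mammalian genomes, so G at position 2 was also compared with G after the same base further inside the inserts. Inside the members, over positions 11 to 25, G followed C in 5.26% ± 0.0669 of cases, close to the 3.87% by reads and 6.58% by ends seen after a C at position 1. After G, however, the inside share was 19.6% ± 0.389, against 4.82% and 10.3% at position 2. After A it was 19.7% ± 0.0123, against 14.3% and 19.1%. After U it was 31.2% ± 0.222 inside members, and inside 1U inserts without 10A 29.7% ± 0.399, against 22.1% and 23.7% at their position 2. The interior shares are weighted by reads and cover members of all start bases together, so only the read-weighted position 2 values match them in weighting. By reads, G at position 2 was below the interior share after each of the 4 bases, with the largest gap after G.

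U took much of the place of G in reads. It stood at position 2 in 39.3% ± 0.721 of C-start and 35.2% ± 0.0608 of A-start member reads, against 19.5% ± 0.173 of 1U inserts without 10A. By ends the shares were 35.9% ± 0.0425, 23.4% ± 0.00856 and 24.6% ± 0.0316. The surplus of U therefore held by both weightings in C-start members, at 19.8 ± 0.548 and 11.3 ± 0.0110 points. In A-start members it turned from 15.8 ± 0.233 points by reads to -1.20 ± 0.0230 by ends, and in G-start members from 11.7 ± 0.214 to -0.74 ± 0.358. The top A-start ends show where the surplus by reads sits: A-start 1, 2 and 3, the 3 most abundant, all begin with AT.

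G was also scarce at position 9, just before the position of the second rule. It stood there in 10.8% ± 0.0332 of member reads, against 18.96% ± 0.198 of 1U inserts without 10A, and in 15.7% ± 0.245 of member ends, against 19.5% ± 0.124. The difference had the same sign for each start base under both weightings. By ends it was -3.09 ± 0.0682 points for A-start, -4.59 ± 0.0874 for C-start and -3.52 ± 0.256 for G-start members.

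At position 5 the 2 weightings differed. A stood there in 56.1% ± 1.20 of A-start, 36.3% ± 0.580 of C-start and 26.4% ± 0.542 of G-start member reads, against 44.1% ± 0.0389, 38.98% ± 0.485 and 36.1% ± 0.161 by ends. The order was the same and the spread narrower. Over all members, A at position 5 was 40.4% ± 1.26 by reads and 40.1% ± 0.276 by ends, while 1U inserts without 10A had 48.5% ± 0.0275 by reads and 40.2% ± 0.0432 by ends. The difference was thus -8.14 ± 1.28 points by reads, and by ends the sign of the difference was not the same in both libraries. G was uncommon at position 5 in members, at 8.63% ± 0.130 of reads and 11.2% ± 0.00192 of ends, and also in 1U inserts without 10A, at 7.80% ± 0.0955 and 11.5% ± 0.00429. G at position 5 was thus low in both, unlike G at position 2.

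Most member reads overlapped a U-start insert that began within a few bases of them. A neighbour was counted where the sequences placed the start of a U-start insert of 24 to 40 nt within 5 nt upstream or downstream, by an exact match of 20 nt. Of member reads, 85.0% ± 0.413 had such a neighbour of any abundance, and 87.5% ± 0.596 of 1U inserts without 10A had another U-start insert as neighbour. Members differed in how they ranked beside it: 38.3% ± 0.372 of member reads had a U-start neighbour with at least as many reads as their own 5′ end, against 24.8% ± 0.355, a difference of 13.5 ± 0.0167 points. By start base the share was 45.9% ± 0.132 for C, 38.0% ± 0.411 for A and 31.9% ± 0.112 for G, in the same order in both libraries.

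The distance to the neighbour differed by start base. At 1 nt upstream, 11.4% ± 0.134 of member reads had a U-start neighbour with at least as many reads, against 3.43% ± 0.00558 of 1U inserts without 10A. The share was nearly equal for A-start, C-start and G-start members, at 11.6% ± 0.488, 11.6% ± 0.0153 and 11.05% ± 0.190. At 1 nt downstream it was 13.96% ± 0.0174 for C-start, 7.53% ± 0.0984 for A-start and 4.75% ± 0.197 for G-start members, against 4.06% ± 0.0505. A U-start neighbour 1 nt downstream requires U at position 2. By reads, 39.3% of C-start, 35.2% of A-start and 31.2% of G-start members had it, against 19.5% of 1U inserts without 10A. Fewer of the latter could therefore qualify, and the downstream shares are partly set by position 2. C-start members had a U-start neighbour with at least as many reads 1 nt downstream more often than 1 nt upstream.

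The printed pairs show the upstream case in single sequences. A-start 4 had 2054 and 1969 reads at its end, and the end that starts 1 nt earlier with T had 2798 and 2450. G-start 5 had 785 and 2000 reads, and its neighbour 1025 and 2463. The further A-start member had 228 and 452 reads at its end beside 1278 and 2508 for its neighbour. The larger U-start end in each pair follows from how the pairs were chosen. By single inserts, that of A-start 4 had 1074 and 1130 reads and the printed neighbour 1233 and 904.

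Most of the other abundant members shown had only minor U-start ends near them. Neighbours starting with A, C or G were not searched for. The end of G-start 1 had 39 and 54 reads of a U-start neighbour 1 nt upstream, beside its own 11777 and 18831, and 42 and 94 reads 2 nt downstream. A-start 1 had 44 and 44 reads 1 nt downstream beside 8150 and 10455, and 1 and 0 reads 1 nt upstream. That lone read counts in replicate 1 in a share not given above. At any abundance, 30.7% of A-start member reads in replicate 1 and 18.3% in replicate 2 had a U-start neighbour 1 nt upstream. G-start 3 had a larger U-start end nearby, with 712 and 982 reads 1 nt downstream beside its own 2519 and 3799.

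The dependence on abundance was seen across the whole group. Among 5′ ends with 1 read, 53.0% ± 1.07 of member reads had a U-start neighbour with at least as many reads, against 22.3% ± 1.66 of 1U inserts without 10A. At 2 to 9 reads the shares were 73.5% ± 0.148 and 41.7% ± 0.746, and at 10 to 99 reads 60.7% ± 0.312 and 45.1% ± 0.143. At 100 up to 1000 reads they were 24.2% ± 0.946 and 25.1% ± 0.113. At 1000 or more reads they were 4.83% ± 0.335, over 41 member ends, and 7.43% ± 0.182. Members with fewer than 100 reads were thus more often than 1U inserts beside a U-start end at least as abundant as themselves, and over all start bases together those with more reads were not. By start base, C-start members with 100 up to 1000 reads were an exception, at 26.5% and 29.7% against 25.04% and 25.2%. This division by abundance was chosen after the data were seen. A read with 1 changed base near its 5′ end counts as a separate 5′ end and can lose the exact match to its neighbours. Ends with 1 read held 4.37% ± 0.236 of reads of 1U inserts without 10A, against 13.2% ± 0.910 of member reads. Such copies may thus weigh unequally in the 2 kinds of insert. Their part in the differences at ends with few reads was not tested, so no conclusion is drawn from those differences.

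Some C-start members equalled a U-start insert except for the first base. Of C-start member reads, 6.76% ± 0.199 belonged to inserts with such a relative of at least the same abundance, against 0.989% ± 0.0512 of A-start and 0.346% ± 0.0102 of G-start reads. A relative that differed at another position, with U in its place, was found for between 0.0337% and 0.459% of member reads per position, with a median of 0.0743%. For C-start members alone the range was 0.0392% to 0.567%. At position 10, a relative with A was found for 0.128% ± 0.00494 of member reads. Relatives that differ at position 1 come from the large pool of U-start inserts. Those that differ elsewhere do not start with U and come from only 9.47% ± 0.0152 of core-length reads. The shares at position 1 and at other positions thus cannot be compared as rates. Of distinct C-start members, 3103 of 25200 in replicate 1 and 4412 of 32805 in replicate 2 had a U-start relative, and 2841 and 3906 of these had 1 read.

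In the printed pairs the relative was far more abundant than the member, though the pairs were chosen for a more abundant relative. C-start a had 11 and 20 reads beside 4862 and 7454 of its relative, and C-start b 8 and 22 beside 5823 and 8576. Over 459 U-start inserts with 1000 or more reads, C stood in place of U at position 1 in 1.81 ± 0.00158 per 1000 reads. The same exchange at positions 2 to 28 ranged from 1.32 to 5.47 per 1000, with a median of 1.62. The exchange of U for C at position 1 of abundant U-start inserts thus lay inside the range of the other positions. The reverse exchange did not. Over 13 C-start core-length inserts of that depth, U stood in place of C at position 1 in 10.8 ± 1.62 per 1000 reads. At positions 2 to 28 U stood in place of C in 0.531 to 3.94 per 1000, with a median of 0.771. The cause was not tested. Leaving out members with a relative of at least equal abundance, with U at position 1 or A at position 10, changed the share of A at position 5 from 40.4% to 40.2%.

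Most member reads shared their last 20 nt with a U-start insert that had another 5′ end. The last 20 nt were also the last 20 nt of a U-start insert for 65.5% ± 1.25 of member reads, against 74.3% ± 2.70 of 1U inserts without 10A, a difference of -8.77 ± 1.45 points. The share was 62.5% ± 0.0532 for A-start, 66.0% ± 2.40 for C-start and 68.6% ± 1.30 for G-start members. With the last 24 nt the difference was -5.52 points. A copy of a 1U insert with 1 changed base between its first base and the shared end starts with U and counted as sharing. Such a copy of a member does not start with U and did not count. The measure thus treats members and 1U inserts unequally, so no conclusion is drawn from the difference.

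The last base itself was U in 49.1% ± 0.828 of member reads and in 55.6% ± 0.444 of G-start reads, against 46.7% ± 0.769 of 1U inserts without 10A. Where at least 20 longer reads of the same 5′ end fixed the base that should follow, the last base of a member could be compared with it. This was possible for 3978 distinct members with 34.0% ± 0.914 of member reads, and the comparison was added after the data were seen. The last base differed from that template base in 9.22% of reads in replicate 1 and 10.7% in replicate 2, against 9.90% and 12.1% of 1U inserts without 10A. U in place of the template base was less common in members, at 3.55% ± 0.0346 against 5.33% ± 0.443, and was 5.27% ± 0.0103 in C-start aut 2.35% ± 0.152 in G-start members. C in place of the template base was 6.32% ± 1.70 in G-start members, against 4.27% ± 1.46 of 1U inserts without 10A.

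These last bases differed between the libraries. C in place of the template base was 3.89% of member reads in replicate 1 and 5.93% in replicate 2, while G was 0.861% and 0.246%. In 1U inserts without 10A the shares were 3.24% and 5.30% for C and 0.749% and 0.197% for G, so the libraries differed in the same direction there. Among the printed sequences that end in T, a form ending in C was regular. For G-start 2, 87.4% ± 0.611 of 30-nt reads ended in T, 10.9% ± 1.76 in C and 1.18% ± 1.06 in G. For G-start 1 the C form was 7.29% ± 2.27 and for C-start 1 11.2% ± 2.74, and each was higher in replicate 2. C-start 4 ends in C, and its form with T held 22.1% ± 1.45.

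The amount of each abundant member agreed between libraries about as well as that of other core-length inserts. Of 322 distinct members with 100 or more reads in total, 12 (3.73%) were 2-fold or more apart in RPM, and over all 11317 core-length inserts of that depth the share was 3.43%. By start base these were 2 of 131 A-start, 2 of 99 C-start and 8 of 92 G-start members. Of the 12, 10 were higher in replicate 2, as were 315 of the 388 among all core-length inserts. The median log2 ratio of replicate 2 to replicate 1 was 0.21 for members and 0.18 for all inserts of that depth.

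The members at both extremes were forms of printed G-start ends with another last base, shown here with the differing base as the final letter.
form of G-start 5, higher in replicate 2: GaaatgaatGaggacctggtcctgtgggc
form of G-start 2, higher in replicate 1: GtttcagacCatgggtcttctgaacggcgg
The form of G-start 5 ending in C had 38 and 207 reads, a log2 ratio of 2.02. The form of G-start 2 ending in G had 96 and 37 reads, a log2 ratio of -1.80. Both differed in the direction in which C and G last bases differed between the libraries, and the part of the last base in these ratios was not tested.

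Complementary small RNAs that overlap a member by 10 nt at the 5′ ends, as cleavage by a PIWI protein leaves them, were rare. By the rule itself such a partner of a member has neither 1U nor 10A either, since its first and 10th bases pair with the 10th and first of the member. A search needs the bases upstream of the member, which other inserts supplied for 32.9% and 34.0% of member reads. Of these placed reads, 3.47% in replicate 1 and 0.267% in replicate 2 had a partner at 10 nt, so the libraries did not agree. Counted once each, 0.488% ± 0.181 of placed members had one. The share was 3.18% ± 0.0247 for inserts with 10A but no 1U, but their partners must have 1U and no 10A, a far larger pool, so the shares cannot be compared as rates.

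The gap between the libraries came from lone reads of partners to a few abundant A-start members. At 10 nt, 7.45% of placed A-start reads in replicate 1 and 0.329% in replicate 2 had a partner. The 2 leading inserts, which were picked after their values were seen, are shown with capitals at positions 1 and 10.
A-start with partner, larger: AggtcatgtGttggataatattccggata
A-start with partner, smaller: AatgaatgaGcagactgtttaaataacctc
The larger had 671 and 1236 reads and its partner 1 and 0 reads. The smaller had 380 and 523 reads and its partner at 10 nt also 1 and 0 reads. At 9 nt the partner of the smaller had 5 and 2 reads, and the share of placed A-start reads with a partner at 9 nt was 4.34% and 4.17%. For C-start and G-start members at 10 nt the shares were 0.458% ± 0.221 and 0.150% ± 0.0162.

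Few members could be placed by the RefSeq tables of the GRCm38.p6 assembly. Inside miRNA hairpins lay 43 distinct members with 0.0187% ± 0.00382 of member reads, against 0.0263% ± 0.000812 of reads of 1U inserts without 10A. Over all core-length reads the share was 0.172% ± 0.0189. In inserts with 10A but no 1U it was 2.86% ± 0.484, from 14 distinct inserts. In promoter windows, which span a gene's start, lay 425 members with 0.266% ± 0.0139 of member reads, against 0.267% ± 0.00844 of all core-length reads. Among start bases the promoter share was 0.408% ± 0.0284 for G, 0.233% ± 0.0111 for C and 0.164% ± 0.0317 for A.

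The most abundant of these matches, singled out after its values were seen, lies in a tRNA gene.
tRNA-matching G-start member: GTTTCCGTAGTGTAGTGGTTATCACGTTC
It had 73 and 136 reads and matches chr13:23446186-23446214 on the minus strand of GRCm38.p6, at the 5′ end of the tRNA gene n-TVcac9, and also lies in the promoter window of Gm46404. A form that is longer by 2 bases at its 3′ end had 69 and 79 reads. The 15 abundant 5′ ends printed above had no match in either table.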

How the data were processed

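Small RNAs bound to PIWIL1 in testes of 10-week-old mice were sequenced in 2 libraries, grouped by their titles. The authors deposited read counts, with 1 row per distinct sequence and its count in each replicate, per the file headers. The sequences are untrimmed reads of 50 nt that run into the 3′ adapter. Bowtie, STAR and the mm10 build are named in the submitters' processing notes, with no role or version, and the table holds no alignment. It names no genes, so tissue markers could not be checked in it. The RPKM table of the series was not used.

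Inserts were the bases before the first exact match to the first 10 nt of the adapter, which was read from the data. Reads without a match (1.95% and 1.27%) or of adapter alone (0.409% and 0.0651%) were left out, as were 3 core-length inserts with an undetermined base. RPM are reads per 1000000 insert reads. Neighbours, relatives, partners and shared ends were found by exact matches between inserts, without a genome, so inserts from repeated sequences cannot be told apart. Partners were matched over 16 nt. Last bases were compared with the template only where at least 95% of 20 or more longer reads shared the next base. Python 3.11.15, NumPy 2.4.6, pandas 2.3.3 and SciPy 1.17.1 were used. Simulated reads served to test member calling, neighbours 1 nt downstream, U-start relatives at position 1 and changed last bases. The other measures were not tested in this way. Per-library sums and shares have no count model behind them, because both libraries belong to 1 group.

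Sequences named in the text are, for each start base, the 5 most abundant 5′ ends by mean RPM, the 3 most abundant members with a U-start neighbour whose 5′ end had more reads, the 3 with a more abundant relative at position 1 or 10 (of which 1 is not reported here), and the members with the highest and lowest ratio between libraries. The members, measures and lists were chosen with earlier results of these data known. Adapter matching, length limits, weighting, match lengths and read minimums were varied, and each library was left out in turn.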

Additional observations from a re-analysis of the deposited data

How the results depend on the processing

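The group's share of core-length reads, 5.45%, kept its value to 3 digits with adapter matches of 8 or 12 nt or 1 mismatch. It was 4.51% among inserts with 2 or more reads or in both libraries, 9.49% with each distinct insert once, 12.7% with each 5′ end once, 5.05% at 30 nt and 5.78% at 26 to 33 nt. Without replicate 1 or 2 it was 5.47% and 5.43%. Without the 100 most abundant member 5′ ends, the 30-nt share of members was 43.6% in place of 41.6% and A at position 5 was 42.3% in place of 40.4%. U-start neighbours of any abundance were found for 85.7% of member reads with a 16-nt match and 83.8% with 24 nt, and neighbours of at least equal abundance for 38.3%. The difference of members from 1U inserts without 10A turned from -2.48 to 13.5 points when the neighbour had to be at least as abundant. U-start relatives covered 1.78% of member reads when 10 times as abundant and 28.2% at any abundance, against 2.46%. At member ends with 50 or more reads the commonest 3′ end held a median of 47.1%, in place of 49.4%, and 1U inserts were not measured there. In all, 7.18% of members were 2-fold apart at 50 or more reads in total.

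Of 34 differences from 1U inserts without 10A under 121 alternatives, 107 values kept their direction. With each 5′ end once, A at position 2 turned to 4.16 points for A-start and 6.85 for all members, U at position 2 to -1.20 for A-start and -0.74 for G-start, A at position 4 to 6.04 for A-start, and G at position 5 to -0.61 for A-start, -0.36 for C-start and -0.22 for all members. Another alternative left out the 100 most abundant member ends and the 100 most abundant U-start ends. There A at position 2 turned to 1.74 for all members, A at positions 4 and 5 to 5.98 and -0.25 for A-start, and the 31-nt share to -0.88 for G-start. G at position 5 of G-start turned to -0.49 among inserts in both libraries and to -0.099 without replicate 1, and was 0.57 without replicate 2. The causes were not tested. No paired analysis was possible because both libraries used belong to 1 group, and the comparisons are between kinds of insert within each library.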
